A study of Homo sapiens with 12 samples.

Results

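The 29 genes described here are well-known targets that the transcription factor p53 induces in human cells; they were found by their symbol or older name in the annotation of the array, with no threshold on their values, and are grouped by the role of their products. Of the 29 genes, 27 had a probe set with their symbol in the table used, each of them exactly 1, among 33297 probe sets in all. The signals of BTG2 and FDXR were not analysed here.

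Cells stabilise p53 after DNA damage and other stresses, and it then raises the transcription of a set of target genes. The products of these genes stop the cell cycle, repair DNA, start cell death, adjust metabolism and, through MDM2 and PPM1D, bring p53 itself back down. The levels of such targets are therefore often read as a measure of p53 activity, although most of them also answer to other transcription factors.

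The samples were 12 cultures of Granta 519, an established cell line of mantle cell lymphoma, a B cell lymphoma that often expresses the transcription factor SOX11. In 4 cultures, 4000000 cells were nucleofected with 100 pmol of SOX11 siRNA; 4 cultures received the same amount of a non-targeting control siRNA, and 4 were untreated. RNA was taken 20 h after nucleofection, with no separate time given for untreated cells, so all results are for 1 cell line and 1 time. The untreated cells received neither nucleofection nor siRNA, so the effects of nucleofection, of siRNA and of handling cannot be told apart in a comparison with them. RNA from each culture was hybridised to 1 Affymetrix Human Gene 1.0 ST array, and the values are linear PLIER signals, a brightness per probe set that ranks samples for 1 gene but does not rank genes.

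SOX11 itself gave 188 to 229 in SOX11 siRNA cells, 1026 to 1191 in control siRNA cells and 978 to 1041 in untreated cells, a log2 fold change of -2.27 (SE 0.0893, adjusted p = 1.7e-09, limma) for SOX11 siRNA against control siRNA. All 9 measured B cell markers were above the median probe set, against 3 of 11 T and NK cell markers, 2 of 10 myeloid markers and 4 of 12 stromal and epithelial markers (a rough check, as the signal does not rank genes). Summed over their lists, the T and NK cell markers gave 468 to 655 in SOX11 siRNA cells, 548 to 641 in control siRNA cells and 569.8 to 698 in untreated cells. The B cell markers gave 10700.0 to 13390.0, 10430.0 to 12590.0 and 11250.0 to 12830.0, the myeloid markers 448 to 594, 443 to 536 and 413 to 538, and the stromal and epithelial markers 1107 to 1560.0, 1142 to 1376 and 1207 to 1334 in the same 3 groups, so the sums overlapped between the groups in every list. Among single markers, CD22 was called lower than in untreated cells with SOX11 siRNA (-0.48, adjusted p = 0.0118, limma) and with control siRNA (-0.53, adjusted p = 0.0169, limma). With SOX11 siRNA, FCRLA (0.45) and KRT18 (0.57) were called higher and PRF1 (-0.43) lower than in untreated cells (adjusted p between 0.0203 and 0.0418, limma); the part of other cells in the results was not tested. In RNA from a whole culture, fewer cells of a type and less RNA per cell cannot be told apart.

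p53 binds a response element made of 2 adjacent copies of a unit of 10 bases. The element was searched for in RefSeq promoter windows of 300 bases (250 before and 50 after a transcription start, GRCh38.p14), used for 23 of the 29 genes (not for TP53INP1, TNFRSF10A, TNFRSF10B, RRM2B, GADD45A and PHLDA3). The p53 consensus element, which reads the same on both strands, was taken with no gap between its units, with the central C and G of each unit required and with at most 3 mismatches elsewhere. It was found in 8 of 35 windows and in 7 of the 23 genes (SESN1, FAS, DDB2, MDM2, AEN, FDXR and GDF15), so most of the genes had no match in their windows, and in 392 of all 35116 windows (1.12%). A single unit with no mismatch was found in 6 of the genes and in 6.63% of all windows. The 20 bases of the best match are shown for the 6 measured genes, to set beside their values, 5′ to 3′ on the strand of the gene with the 4 central bases of each unit in capitals.
GDF15: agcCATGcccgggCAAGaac
MDM2: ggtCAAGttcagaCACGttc
FAS: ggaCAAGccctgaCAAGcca
AEN: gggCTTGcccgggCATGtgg
DDB2: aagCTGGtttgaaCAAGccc
SESN1: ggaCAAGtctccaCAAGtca
The match lay at chr19:18386186-18386205 for GDF15 (plus strand), from 28 bases after the start, with 3 mismatches. For MDM2 it lay at chr12:68808923-68808942 (plus strand), from 94 and 101 bases before 2 annotated starts, with 2 mismatches. It lay at chr10:88991309-88991328 for FAS (plus strand, 122 bases before, 2 mismatches), chr15:88621306-88621325 for AEN (plus strand, 34 before, 2 mismatches), chr11:47214969-47214988 for DDB2 (plus strand, 5 before, 1 mismatch) and chr6:109009018-109009037 for SESN1 (minus strand, 49 before, 3 mismatches). As longer stretches, the 250 bases before the start of MDM2, which feeds back on p53, and those before the start of PLK2, the gene with the largest differences below, are shown. In the first, chr12:68808767-68809016 on the plus strand, capitals mark the element of 20 bases. In the second, chr5:58460087-58460336 on the minus strand, capitals mark 1 unit with no mismatch, 132 bases before the start, and no full element was found.
MDM2: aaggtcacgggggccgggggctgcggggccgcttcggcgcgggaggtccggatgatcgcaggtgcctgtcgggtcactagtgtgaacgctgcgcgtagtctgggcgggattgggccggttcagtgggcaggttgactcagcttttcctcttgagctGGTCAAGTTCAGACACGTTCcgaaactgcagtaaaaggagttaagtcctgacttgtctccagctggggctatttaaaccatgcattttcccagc
PLK2: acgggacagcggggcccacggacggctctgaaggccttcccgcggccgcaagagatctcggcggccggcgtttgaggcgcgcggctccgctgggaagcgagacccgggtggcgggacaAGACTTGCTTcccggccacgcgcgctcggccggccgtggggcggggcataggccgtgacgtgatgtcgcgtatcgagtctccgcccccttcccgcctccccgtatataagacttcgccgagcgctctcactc
A match to these letters is a description and not a measured binding site; CDKN1A, whose window held no match, is a case where the known p53 sites of a gene lie further out.

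The first comparison asked whether silencing SOX11 moved the p53 targets. None of the 27 genes differed between SOX11 siRNA and control siRNA cells at an adjusted p under 0.05 (limma on log2(signal + 16), p-values adjusted over all probe sets by Benjamini-Hochberg), where 0.183% of all probe sets did (0.003% higher and 0.18% lower). The adjusted p was 1 for each of the 27, and none was called under any of the 25 alternative settings tried. At an unadjusted p under 0.05, 2 genes were higher in SOX11 siRNA cells, DRAM1 and SPATA18, against 1.49% of all probe sets; no gene was lower, against 2.77%. The log2 fold changes ran between -0.19 (TP53INP1) and 0.28 (DRAM1), with 22 of 27 above 0 against 52.2% of all probe sets, and their median was 0.10 against 0.01 for all probe sets. Without control siRNA replicate 4 that median was 0.052, and without SOX11 siRNA replicate 1 it was 0.0655, with 19 of 27 above 0 each time. The median of all probe sets was then -0.0214 and -0.0168, in place of 0.0061. The 95% intervals of the 27 differences lay between -0.45 and 0.56.

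DRAM1, a lysosomal membrane protein that p53 uses to promote autophagy, had signals of 497, 407, 404 and 444 in SOX11 siRNA cells, against 322, 375, 398 and 342 in control siRNA cells and 334, 286, 412 and 384 in untreated cells. All 4 SOX11 siRNA arrays were above all 4 control siRNA arrays, by 404 against 398 at the closest pair, while the untreated arrays overlapped both groups. The log2 fold change against control siRNA was 0.28 (SE 0.117, unadjusted p = 0.0322, limma). SPATA18, which takes part in the quality control of mitochondria, had 47.6, 49.4, 47.0 and 50.7 in SOX11 siRNA cells, against 42.3, 38.4, 38.7 and 41.5 in control siRNA cells and 34.6, 36.1, 42.5 and 47.3 in untreated cells. Its 4 SOX11 siRNA arrays were again the higher ones, with a log2 fold change of 0.20 (SE 0.0894, unadjusted p = 0.0379, limma), but its signals lay below the median probe set and the untreated arrays spanned nearly the whole range. These were the only 2 of the 27 genes whose SOX11 siRNA and control siRNA arrays did not overlap, both higher; 0.601% of all probe sets had such a separation upward and 1.35% downward. The next smallest p-values in this comparison belonged to PLK3, a stress-responsive polo-like kinase (0.19, interval -0.04 to 0.42), TRIAP1, an inhibitor of apoptosome formation (0.17, interval -0.05 to 0.38), and POLH, a DNA polymerase that copies past ultraviolet lesions (0.19, interval -0.06 to 0.43).

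The differences between the siRNAs are given next for CDKN1A, MDM2, GADD45A and GDF15, named as examples. Other targets lay further from 0, such as DDB2 (0.16), TIGAR (0.14) and FAS (0.13), with TP53INP1 the lowest at -0.19. Of the 27 genes, 22 were above 0 and 5 below. CDKN1A encodes p21, the cyclin-dependent kinase inhibitor through which p53 arrests cells before S phase. Its signals were 548, 507, 433 and 452 in SOX11 siRNA cells, 501, 497, 566 and 398 in control siRNA cells and 465, 435, 453 and 417 in untreated cells. The difference between the siRNAs was -0.01 on the log2 scale, with an interval of -0.25 to 0.22. MDM2, the ubiquitin ligase that marks p53 for degradation, gave 2143, 2263, 1820.5 and 2016 in SOX11 siRNA cells, against 1819, 2148, 2078 and 1725 in control siRNA cells and 1396, 1455, 1818 and 1665 in untreated cells, with 0.09 (interval -0.15 to 0.32) between the siRNAs. For GADD45A, a stress protein of cell cycle checkpoints and repair, the difference between the siRNAs was 0.00 (interval -0.28 to 0.28), and for GDF15 it was also 0.00 (interval -0.19 to 0.19). An absence of calls does not show that SOX11 siRNA left these genes unchanged; the intervals give the sizes that remain possible.

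**Figure D1:**
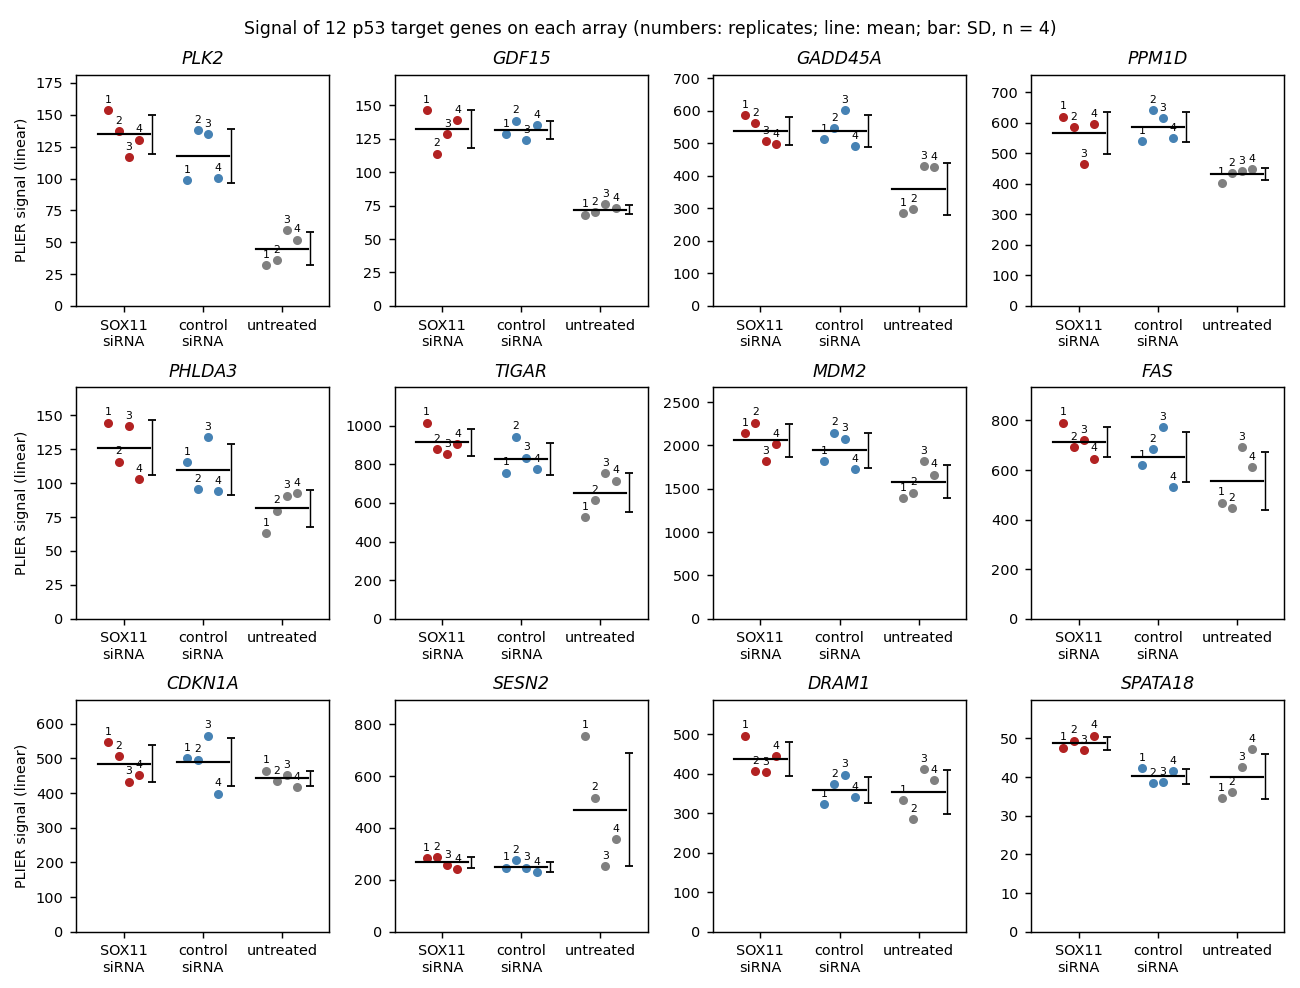
Linear PLIER signal (vertical axis, from 0) of 12 p53 target genes on each of the 12 arrays, with SOX11 siRNA, control siRNA and untreated cells side by side; points carry replicate numbers, lines are means and bars SD (n = 4). PLK2 and GDF15 are higher on all 8 siRNA arrays than on any untreated array, CDKN1A overlaps between the 3 groups, and SESN2 spreads from 252 to 756 among the untreated arrays.

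The second comparison set the nucleofected cells against the untreated ones, and here p53 targets differed. In control siRNA cells, 2 of the 27 genes were called higher than in untreated cells, GDF15 and PLK2, and none lower, where 0.171% of all probe sets were called higher and 0.216% lower. In SOX11 siRNA cells, 5 of 27 were called higher than in untreated cells (PLK2, GDF15, GADD45A, TIGAR and PHLDA3) and none lower, where 0.805% of all probe sets were called higher and 1.6% lower (2.4% in all). Both comparisons use the same 4 untreated arrays, so their calls are not independent of each other. At an unadjusted p under 0.05, 11 genes were higher and 1 was lower with control siRNA, against 2.18% and 6.39% of all probe sets, and 18 were higher and 1 was lower with SOX11 siRNA, against 4.7% and 10.2%. The median log2 fold change of the 27 genes was 0.17 with control siRNA and 0.33 with SOX11 siRNA, where the median of all probe sets was -0.06 in both. Above 0 were 22 genes with control siRNA and 23 with SOX11 siRNA, against 32.0% and 35.3% of all probe sets.

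PLK2, a polo-like kinase that acts on centriole duplication and is induced by p53, showed the largest differences among the 27 genes. Its signals (probe set 8112202) were 154, 137, 117 and 131 in SOX11 siRNA cells, 98.5, 138, 135 and 100.3 in control siRNA cells and 32.1, 36.1, 59.5 and 52.1 in untreated cells. Every siRNA array was above every untreated array, the closest pair being 98.5 and 59.5. The log2 fold change was 1.32 for SOX11 siRNA against untreated (SE 0.149, adjusted p = 0.000236, limma) and 1.14 for control siRNA against untreated (SE 0.149, adjusted p = 0.00232, limma). The untreated signals lay below the median probe set (82.9), where the size depends on the added constant: with log2(value + 64) the fold changes were 0.87 and 0.74, and with log2(value + 1) 1.597 and 1.396. Under a one-way analysis of variance the call with control siRNA was lost (adjusted p = 0.0584, against 4.64e-06 to 0.0584 over its alternatives). The difference between the siRNAs, 0.18, had an interval of -0.14 to 0.49 and was not called.

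GDF15, a secreted cytokine of the TGF-beta superfamily that rises under many cellular stresses, was the only secreted factor on the list. It gave (probe set 8027002) 147, 114, 129 and 139 in SOX11 siRNA cells, 129, 138, 124 and 135 in control siRNA cells and 68.3, 70.2, 76.3 and 73.3 in untreated cells. Again no siRNA array overlapped the untreated arrays, which lay within 68.3 and 76.3, also below the median probe set. The log2 fold change was 0.75 for SOX11 siRNA (SE 0.0899, adjusted p = 0.000349, limma) and 0.74 for control siRNA (SE 0.0899, adjusted p = 0.00154, limma), both against untreated. Calls of PLK2 and GDF15 were also made without each single array and without untreated replicates 1 and 2 together.

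The remaining 3 calls were nearer to the threshold. GADD45A gave 586, 562, 505 and 496 in SOX11 siRNA cells, 513, 547, 602 and 490.1 in control siRNA cells and 285, 296, 429 and 426 in untreated cells; all siRNA arrays were above the untreated arrays, which themselves fell into a lower and a higher pair. Its log2 fold change against untreated was 0.58 with SOX11 siRNA (SE 0.132, adjusted p = 0.029, limma) and 0.58 with control siRNA (adjusted p = 0.0758, limma), nearly the same size on either side of the threshold. TIGAR, a phosphatase that lowers glycolytic flux and oxidative stress, gave 1016, 879, 855 and 905 in SOX11 siRNA cells, 757, 944, 835 and 775 in control siRNA cells and 528, 616, 754 and 716 in untreated cells, with 0.48 (adjusted p = 0.0389) for SOX11 siRNA and 0.34 (adjusted p = 0.354) for control siRNA in the limma fit. PHLDA3, which holds back the survival kinase AKT, gave 145, 116, 142 and 103 in SOX11 siRNA cells, 115, 95.8, 134 and 94.3 in control siRNA cells and 63.1, 79.8, 90.9 and 92.7 in untreated cells, with 0.54 (adjusted p = 0.047) and 0.37 (adjusted p = 0.437) for SOX11 siRNA and control siRNA in the same fit. With 1 array left out, the count of 5 calls became 2 without SOX11 siRNA replicate 1 or 2 or untreated replicate 1 or 2, and 3 without control siRNA replicate 1 or untreated replicate 4. The call of GADD45A was lost without SOX11 siRNA replicate 1 or 2 or untreated replicate 1 or 2. That of TIGAR was lost without SOX11 siRNA replicate 1, 2 or 4, control siRNA replicate 1 or 3, or untreated replicate 1, 2 or 4, and that of PHLDA3 without SOX11 siRNA replicate 1, 2 or 3, control siRNA replicate 1 or 2, or any 1 of the untreated replicates. With each array centred on its median, or with quantile normalization, 12 of the 27 genes were called higher with SOX11 siRNA than in untreated cells; the split of all called probe sets was then 938 higher to 383 lower, or 1263 to 1111, in place of 268 to 532.

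**Figure D2:**
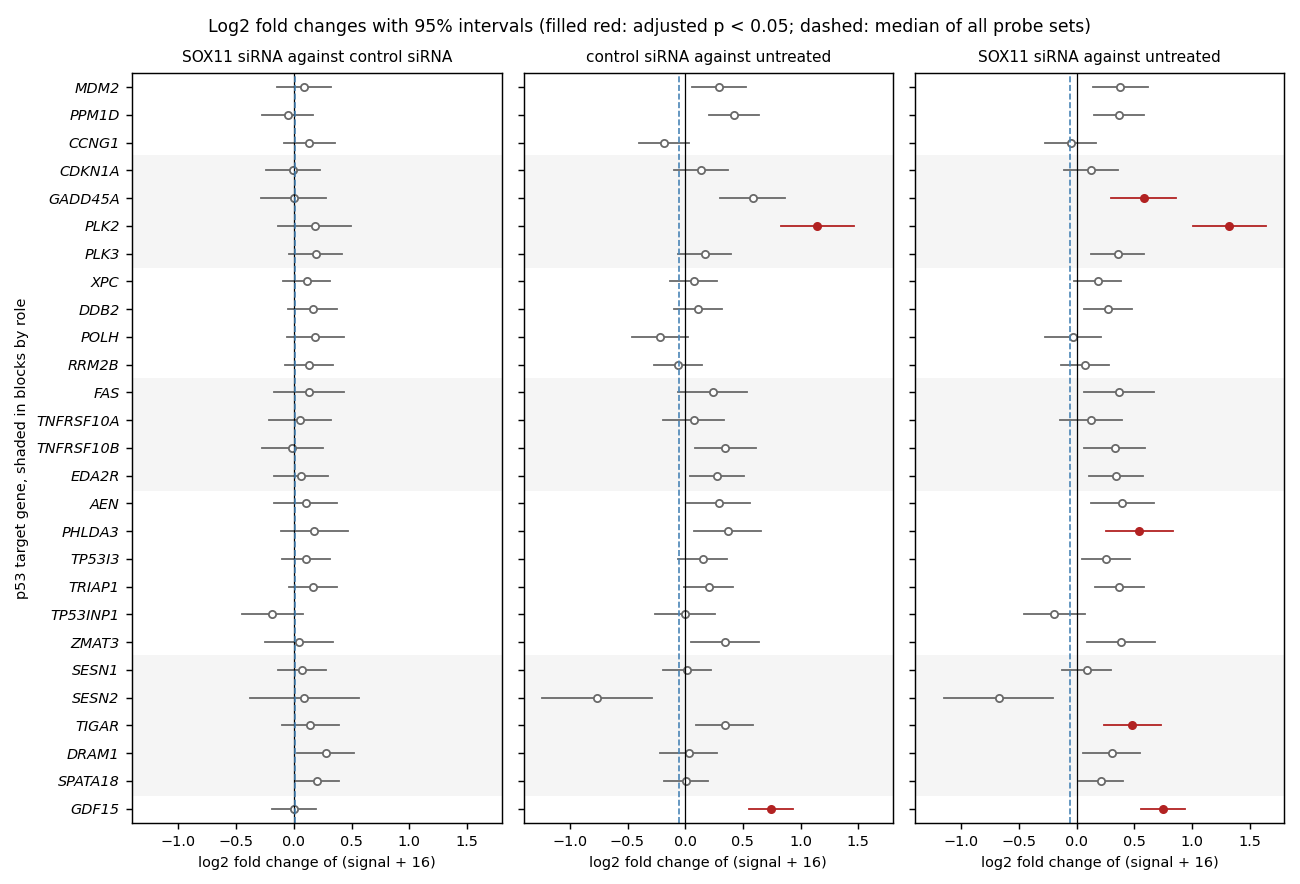
Log2 fold changes of (signal + 16) for the 27 measured p53 target genes (rows, shaded in blocks by role) in the 3 comparisons, with 95% intervals; filled red points passed an adjusted p of 0.05 in the limma fit and dashed lines mark the median of all probe sets. No gene passed between the siRNAs, 2 passed for control siRNA against untreated and 5 for SOX11 siRNA against untreated.

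The differences from untreated cells are given by role, with no test between the roles. Of the 3 genes that feed back on p53, MDM2 and PPM1D, the phosphatase that switches off p53 and its kinases, were higher with both siRNAs at an unadjusted p under 0.05 and CCNG1, cyclin G1, was not. PPM1D gave 620.4, 587, 464 and 596 in SOX11 siRNA cells, 541, 642, 615 and 550.3 in control siRNA cells and 404, 435, 443 and 449 in untreated cells, with no overlap between siRNA and untreated arrays. Its log2 fold change was 0.37 (adjusted p = 0.0771) with SOX11 siRNA and 0.42 (adjusted p = 0.104) with control siRNA in the limma fit, short of the threshold in both. For MDM2 the values were 0.38 (adjusted p = 0.0949) and 0.29 (adjusted p = 0.443), and for CCNG1 -0.05 (interval -0.27 to 0.17) and -0.18 (interval -0.40 to 0.04).

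Among the 4 measured genes of cell cycle arrest, PLK2 and GADD45A had the large differences given above, and PLK3 gave 0.36 with SOX11 siRNA (unadjusted p = 0.0045, limma) and 0.17 with control siRNA. CDKN1A was at 0.12 (interval -0.11 to 0.36, adjusted p = 0.642) with SOX11 siRNA and 0.13 (interval -0.10 to 0.37, adjusted p = 0.807) with control siRNA in the limma fit, with all 3 groups overlapping. Whether its difference was smaller than that of PLK2 or GADD45A was not tested.

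The 4 genes of DNA repair and nucleotide supply had medians of 0.13 with SOX11 siRNA and 0.01 with control siRNA, both against untreated. DDB2, which detects ultraviolet damage in DNA, was the only one of them at an unadjusted p under 0.05, with signals of 749, 720.1, 604 and 713 in SOX11 siRNA cells, 629, 693, 604 and 558 in control siRNA cells and 612, 514, 571 and 598 in untreated cells and a log2 fold change of 0.27 for SOX11 siRNA (adjusted p = 0.196, limma). XPC, the damage sensor of nucleotide excision repair, gave 0.18 and 0.07 with SOX11 siRNA and control siRNA, POLH gave -0.03 and -0.22, and RRM2B, the p53-induced subunit of ribonucleotide reductase, gave 0.07 and -0.06. The intervals of these 3 genes reached 0 in both comparisons.

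The 4 receptor genes FAS, TNFRSF10A, TNFRSF10B and EDA2R were all above 0 against untreated cells in both comparisons. Their medians were 0.33 for SOX11 siRNA and 0.26 for control siRNA, and none was called. FAS, the receptor of the Fas ligand, gave 791, 693, 719 and 646 in SOX11 siRNA cells, 621, 684, 774 and 531 in control siRNA cells and 469, 446, 694 and 612 in untreated cells. Untreated replicates 3 and 4 of FAS lay among the siRNA arrays, and replicates 1 and 2 lay below all of them. TNFRSF10B, a receptor of the death ligand TRAIL, had a mean of 825 ± 118 in SOX11 siRNA cells, 832 ± 92.2 in control siRNA cells and 652 ± 83.2 in untreated cells (SD, n = 4 each), and EDA2R, a receptor of ectodysplasin A2, had 96.9 ± 8.71, 92.4 ± 9.23 and 73.7 ± 12.4 in the same 3 groups (SD, n = 4 each). Both were higher with each siRNA at an unadjusted p under 0.05, with adjusted p-values between 0.138 and 0.477 in the limma fit. TNFRSF10A, the other TRAIL receptor that signals death, gave 0.12 with SOX11 siRNA and 0.07 with control siRNA, with intervals that included 0.

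Of the 6 effectors of cell death and survival, 5 were above 0 against untreated cells in both comparisons, and TP53INP1 was not. AEN, a nuclease of apoptotic DNA digestion, gave 409.6, 357, 309 and 336 in SOX11 siRNA cells, 320.4, 349.9, 378 and 265 in control siRNA cells and 221, 244, 305 and 291 in untreated cells; the SOX11 siRNA arrays were all above the untreated arrays and the control siRNA arrays were not. Its log2 fold change was 0.39 with SOX11 siRNA (adjusted p = 0.137, limma) and 0.29 with control siRNA (adjusted p = 0.543, limma). TRIAP1 averaged 1609 ± 103 in SOX11 siRNA cells, 1435 ± 138 in control siRNA cells and 1245 ± 122 in untreated cells (SD, n = 4 each), and its 0.37 for SOX11 siRNA had an adjusted p of 0.0677 in the limma fit. ZMAT3, an RNA-binding zinc finger protein, gave 0.39 and 0.34 with SOX11 siRNA and control siRNA, and TP53I3, an oxidoreductase linked to reactive oxygen species, gave 0.25 and 0.15. TP53INP1, which helps p53 to induce apoptosis, gave 216, 209.8, 148 and 166 in SOX11 siRNA cells, 210.3, 231, 219 and 183 in control siRNA cells and 239, 223, 199.9 and 186 in untreated cells, a log2 fold change of -0.19 (interval -0.45 to 0.07) for SOX11 siRNA against untreated.

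Among the 5 measured genes of metabolism, redox state and autophagy, SESN2 had the lowest log2 fold changes and TIGAR the highest against untreated cells. SESN2, a sestrin that restrains growth signalling under oxidative and nutrient stress, gave 284, 287, 256 and 239.9 in SOX11 siRNA cells, 247, 275, 247 and 229 in control siRNA cells and 756, 517, 252 and 357 in untreated cells. The 8 siRNA arrays lay close together, and the untreated arrays spread between 252 and 756, with replicate 3 among the siRNA arrays. The log2 fold change was -0.68 with SOX11 siRNA (SE 0.223, adjusted p = 0.143, limma) and -0.77 with control siRNA (SE 0.223, adjusted p = 0.224, limma) and was not called. It was called lower in both comparisons without untreated replicate 3, at -0.92 and -1.01, and, at unchanged size, without dim probe sets or with probe sets of 1 symbol. Without untreated replicate 1 it was at -0.42 with SOX11 siRNA and -0.51 with control siRNA, and without untreated replicates 1 and 2 together at -0.17 and -0.26, not called in any of these. Its relative SESN1 gave 0.09 (interval -0.12 to 0.30) and 0.02 (interval -0.19 to 0.23) with SOX11 siRNA and control siRNA. For DRAM1 and SPATA18 the differences from untreated cells were 0.30 and 0.21 with SOX11 siRNA and 0.03 and 0.01 with control siRNA, none of them called.

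Counted by separation, 9 of the 27 genes had all 4 SOX11 siRNA arrays above all 4 untreated arrays (MDM2, PPM1D, GADD45A, PLK2, AEN, PHLDA3, TRIAP1, TIGAR and GDF15), where 2.3% of all probe sets did. For control siRNA against untreated the count was 6 (PPM1D, GADD45A, PLK2, PHLDA3, TIGAR and GDF15), where 2.11% did. No gene was separated downward in either comparison, where 5.54% and 5.85% of all probe sets were.

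The untreated arrays did not form 1 even baseline for these genes. In 22 of the 27 genes, untreated replicates 1 and 2 were both below replicates 3 and 4, as they were in 21.1% of all probe sets; in 2 genes they were both above, as in 25.3% of all probe sets. Taken as the median over the 27 genes of the deviation from each gene's untreated mean on the log2 scale, SOX11 siRNA replicates 1 to 4 were at 0.44, 0.33, 0.17 and 0.29, control siRNA replicates 1 to 4 at 0.17, 0.27, 0.28 and 0.01, and untreated replicates 1 to 4 at -0.09, -0.13, 0.14 and 0.13. Control siRNA replicate 4 thus lay below untreated replicates 3 and 4 by this measure, and the other 7 siRNA arrays lay above all the untreated arrays. The same median over all probe sets stayed between -0.19 and 0.04 on the 12 arrays. It was -0.14 on control siRNA replicate 4, against -0.0085 and 0.0003 on untreated replicates 3 and 4, so probe sets as a whole were also lower there. Without untreated replicates 1 and 2 together, a choice made after seeing the data, 2 of the 27 genes were called in each comparison with untreated cells, PLK2 and GDF15 both times, and the median of the 27 genes was 0.17 for SOX11 siRNA and 0.08 for control siRNA. What set the untreated replicates apart was not tested.

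**Figure D3:**
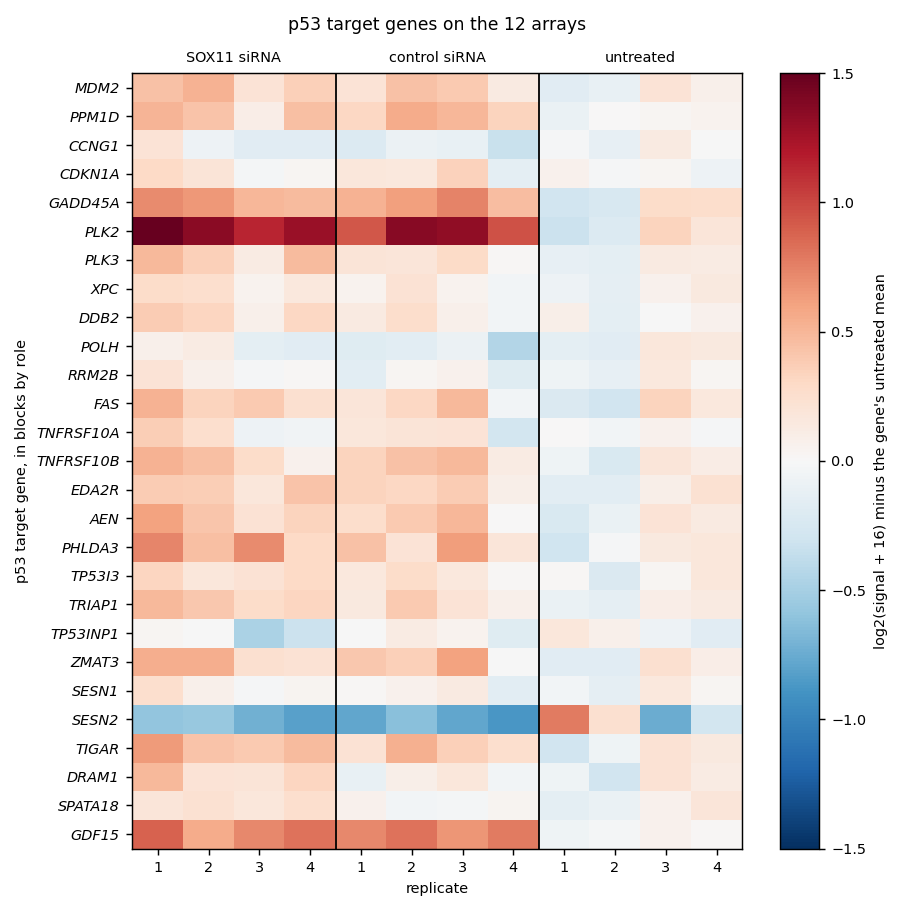
Heat map of log2(signal + 16) minus the gene's untreated mean for the 27 measured p53 target genes (rows, in blocks by role) on the 12 arrays (columns, by replicate), red above and blue below the untreated mean. The row of PLK2 is the reddest on all 8 siRNA arrays, SESN2 is blue on them, and untreated replicates 1 and 2 are paler or bluer than replicates 3 and 4 in 22 rows.

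**Figure D4:**
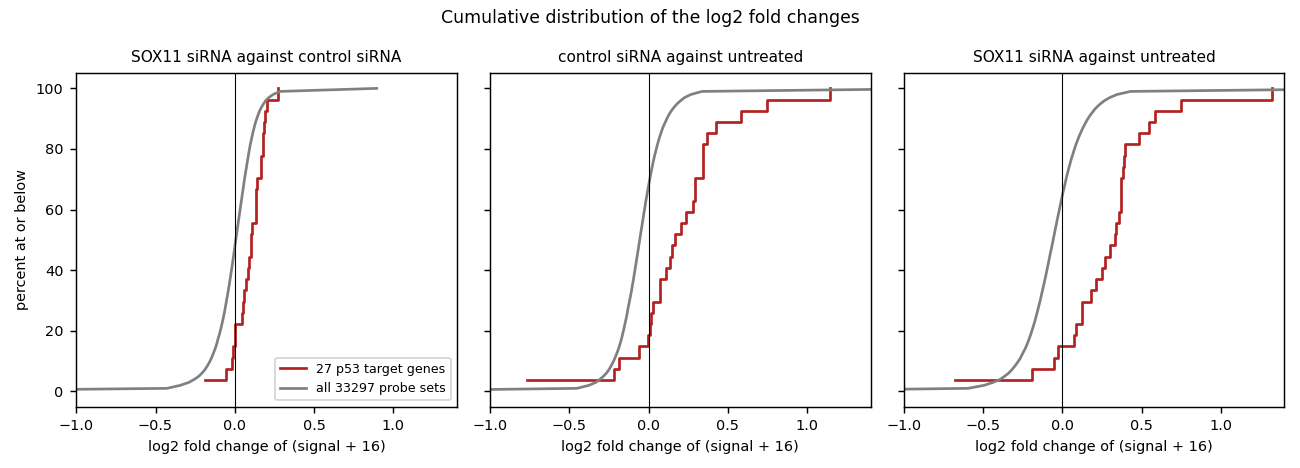
Cumulative distribution (vertical axis, percent at or below) of the log2 fold changes of (signal + 16) for the 27 p53 target genes (red steps) and all 33297 probe sets (grey) in the 3 comparisons. The medians are 0.10 and 0.01 between the siRNAs, 0.17 and -0.06 for control siRNA against untreated, and 0.33 and -0.06 for SOX11 siRNA against untreated.

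Genes around p53 were looked at beside its targets. Of 27 relatives and regulators of p53, 24 were measured and none was called in any of the 3 comparisons. Of all probe sets, 0.183% were called between the siRNAs, 0.387% for control siRNA against untreated and 2.4% for SOX11 siRNA against untreated. Against untreated cells, 14 of the 24 were above 0 with SOX11 siRNA and 16 with control siRNA, against 35.3% and 32.0% of all probe sets. Their medians were 0.03 and 0.04, where that of all probe sets was -0.06. At an unadjusted p under 0.05, 2 were higher and 1 lower with SOX11 siRNA, and 1 was higher and 1 lower with control siRNA, against 4.7% and 10.2%, and 2.18% and 6.39%, of all probe sets. The higher ones, named here after their values were seen, were EP300, a histone acetyltransferase that acts with p53 (0.35), and SIRT1, a deacetylase of p53 (0.21), with SOX11 siRNA, and TP53BP2, which binds p53 (0.27), with control siRNA. MDM4, which binds p53 and blocks its activation domain, averaged 365 ± 37.8 in SOX11 siRNA cells, 403 ± 48.1 in control siRNA cells and 461 ± 17.6 in untreated cells (SD, n = 4 each), with a log2 fold change of -0.33 for SOX11 siRNA against untreated (adjusted p = 0.121, limma). CHEK2, a kinase that activates p53 after DNA breaks, averaged 242 ± 39.4, 210.0 ± 21.3 and 273 ± 16.1 in the same 3 groups (SD, n = 4 each), with -0.36 for control siRNA against untreated (adjusted p = 0.283, limma). ATM, the kinase upstream of CHEK2, averaged 551 ± 89.2, 523 ± 26.3 and 524 ± 11.4, and CHEK1, the checkpoint kinase of stalled replication, averaged 1441 ± 118, 1530.0 ± 154 and 1602 ± 27.2 in these groups (SD, n = 4 each).

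A further list held 57 other genes induced by p53, 52 of them measured. Between the siRNAs 1 was called (0.183% of all probe sets were), BCL6, a repressor of germinal centre B cells, which was lower at 54.8, 56.6, 46.8 and 51.6 in SOX11 siRNA cells, against 74.8, 75.0, 79.2 and 75.8 in control siRNA cells and 66.7, 64.9, 66.6 and 73.2 in untreated cells. Its log2 fold change was -0.43 (SE 0.0821, adjusted p = 0.0477, limma), just inside the threshold, and the call was lost when any 1 of the 12 arrays was left out. TNFRSF10D, a decoy TRAIL receptor that cannot signal death, was the only one of the 52 called against untreated cells, where 2.4% of all probe sets were called with SOX11 siRNA and 0.387% with control siRNA. It gave 669, 552, 505 and 449 in SOX11 siRNA cells, 533, 557, 606 and 432 in control siRNA cells and 289.7, 285, 374 and 336 in untreated cells, with no overlap between siRNA and untreated arrays. Its log2 fold change was 0.72 for SOX11 siRNA (SE 0.134, adjusted p = 0.00928, limma) and 0.70 for control siRNA (SE 0.134, adjusted p = 0.0326, limma); the call with control siRNA was lost without control siRNA replicate 1, 2 or 3 or untreated replicate 1, 2 or 4, and neither was made without untreated replicates 1 and 2 together. The median of the 52 genes was -0.03 in both comparisons with untreated cells, where that of all probe sets was -0.06. In each, 23 of the 52 were above 0, against 35.3% of all probe sets with SOX11 siRNA and 32.0% with control siRNA. Of the 52, 9 were higher and 4 lower with SOX11 siRNA at an unadjusted p under 0.05 (limma), against 4.7% and 10.2% of all probe sets. With control siRNA 6 were higher and 4 lower, against 2.18% and 6.39%.

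Genes that fall when p21 is induced, most of them needed for cell division, were the last list, with 20 of 21 measured. None was called in any comparison, where 0.183% of all probe sets were called between the siRNAs. Against untreated cells, 2.4% of all probe sets were called with SOX11 siRNA and 0.387% with control siRNA. At an unadjusted p under 0.05, 7 were lower with SOX11 siRNA and 6 with control siRNA than in untreated cells and none was higher, against 10.2% and 6.39% of all probe sets lower. Their medians were -0.14 for SOX11 siRNA and -0.17 for control siRNA, where that of all probe sets was -0.06 in both. Between the siRNAs their median was 0.05, against 0.01 for all probe sets.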

How the data were processed

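Gene expression was measured in 12 cultures of Granta 519 cells, 4 per group, each on 1 Affymetrix Human Gene 1.0 ST array. Per the study's methods, RNA came from individual transfection experiments. The untreated cultures were not transfected, and how they were set up was not described separately. The deposited values are linear PLIER intensity signals per probe set, made by the authors with Affymetrix Expression Console 1.1 (GC background correction and global median normalization, per the file headers); the genome build was not given in the sources used here. The medians of the arrays over these probe sets were still not equal. They ran from 69.2 on SOX11 siRNA replicate 3 to 91.8 on SOX11 siRNA replicate 4. The study's own tests were made on values from another method (RMA), so signals here can differ from them. The authors' 12 further columns hold group means, fold changes and p-values of their pairwise comparisons and were not used.

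Signals were compared as log2(value + 16), which understates changes of dim probe sets, with limma 3.58.1 in R 4.3.3. All 12 arrays entered 1 fit of 3 group means, p-values were adjusted over 33297 probe sets (Benjamini-Hochberg), and an adjusted p under 0.05 is a call. Intervals are 95%. Every measured gene had 1 probe set; the number of arrays limits the precision. Tests were given for genes called in any comparison and for the 5 smallest p-values in each, and other genes were described by role; of other lists, called genes and MDM4, ATM, CHEK1 and CHEK2 were named. The scripts were tested on simulated data. The genes, the lists and the tests were chosen with earlier results of these data known. Promoter sequences are from RefSeq (GRCh38.p14). Alternatives changed the normalization, pseudocount, filter, probe sets, arrays, test, prior, weights or replicate block.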

Additional observations from a re-analysis of the deposited data

Results flagged for a closer look

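In 84 sets of 4 arrays (the 27 genes and SOX11 in each of the 3 groups), 2 held an array far from the other 3; chance marks about 1 in 20 such sets. TNFRSF10A, a TRAIL receptor, was at 312 in control siRNA replicate 4, against 430.1 to 442 in the other control siRNA arrays. SOX11 was at 188 in SOX11 siRNA replicate 3, against 225 to 229 in the other SOX11 siRNA arrays.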

How the results depend on the processing

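The siRNAs differed in 0 of the 27 genes under all 25 alternatives, and SOX11 stayed lower at -2.35 to -2.06. For control siRNA against untreated, 2 calls became 5 with quantile normalization, without dim probe sets, with probe sets of 1 symbol (4 higher and SESN2 lower in both), or after quantile normalization with the block added, 4 with array weights and 1 with the one-way analysis of variance (PLK2 at an adjusted p of 0.0584, against 4.64e-06 to 0.0584 over its alternatives); with 1 array left out they were 2 to 3. For SOX11 siRNA against untreated, 5 calls became 12 with quantile normalization or median centring, 10 without dim probe sets or with probe sets of 1 symbol (9 higher and SESN2 lower in both), 13 after quantile normalization once the replicate block was added, 8 with array weights, and 2 with log2(value + 1), the 8 arrays alone, the analysis of variance or without untreated replicates 1 and 2 together, where the median of the genes was 0.17; with 1 array left out they were 2 to 7. For control siRNA against untreated, all called probe sets split 126 to 56 (higher to lower) with median centring and 352 to 292 with quantile normalization, in place of 57 to 72. Median centring moved the median of all probe sets for SOX11 siRNA against untreated to 0.04, in place of -0.06. The causes were not tested.

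Of the other p53-induced genes, the single call between the siRNAs became 0 with quantile normalization, median centring, 8 arrays, trend and robust prior, either replicate block, array weights, without untreated replicates 1 and 2 together, and without any 1 array (0 to 0); without dim probe sets it was also 0, but BCL6 was then not tested. For control siRNA against untreated, 1 became 3 with quantile normalization (also with the block) and array weights, 0 with log2(value + 1), the analysis of variance and without untreated replicates 1 and 2, and 0 to 1 without 1 array. For SOX11 siRNA against untreated, 1 became 5 with quantile normalization (also with the block; 4 higher and PMAIP1 lower), 4 with median centring (all higher) or 1 symbol (3 higher and PMAIP1 lower), 3 without dim probe sets or with array weights, 2 with log2(value + 64) (BCL6 lower beside TNFRSF10D) or the trend and robust prior, 0 without untreated replicates 1 and 2, and 1 to 3 without 1 array; with the analysis of variance the single call was BCL6, lower, in place of TNFRSF10D.

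Differences near 0 changed sign. Between the siRNAs, GADD45A was at 0.0214 with median centring and at -0.043 to 0.0532 without 1 array, PPM1D at -0.0999 to 0.0358 and GDF15 at -0.0451 to 0.0629 without 1 array. POLH with SOX11 siRNA against untreated was at 0.0727 with median centring, 0.0265 with array weights and -0.0875 to 0.0264 without 1 array. For control siRNA against untreated, DRAM1 was at -0.1461 and SPATA18 at -0.1144 without untreated replicates 1 and 2 together, and at -0.0655 to 0.1025 and -0.0398 to 0.0673 without 1 array.

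Of 12 same-numbered pairs of arrays, 3 had deviations that correlated above 0.1 (range -0.25 to 0.29). The 36 other pairs ranged from -0.31 to 0.25, and several of them were also above 0.1. The labels do not say whether a number marks arrays made together, and these correlations cannot settle it. With the replicate block, 4 of the 27 genes were called for SOX11 siRNA against untreated, 2 for control siRNA against untreated and 0 between the siRNAs. The mean over several probe sets of a gene changed nothing, as each gene had 1, and SPATA18 gave no value without dim probe sets.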
